A study of Homo sapiens with 6 samples.

Results

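The 40 genes of mitosis and the G2/M transition were chosen by name from the 60651 gene identifiers that were counted, and each name matched 1 identifier. They encode the cyclins and kinases that start mitosis, the checkpoint and anaphase machinery, kinetochore, spindle and cytokinesis proteins, and 2 transcription factors of the same programme. All 40 passed the count filter and were among the 29086 genes tested, with between 589 and 98437 counted read pairs per gene and library. The rule itself used no measured value, but the genes were chosen with earlier results of these data known.

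RNA came from SK-N-AS, an established human neuroblastoma cell line without MYCN amplification, that carries a tetracycline repressor and a MYCN gene under its control. Every culture therefore holds the same construct and was kept under G418 and blasticidin, and the lines are single clones. The 3 control cultures, whose titles read ETOH, are labelled as controls, and the 3 MYCN-induced cultures, whose titles read Tet, were grown with tetracycline for 5 days, given as 120 h in the titles. No culture without the MYCN construct was exposed to tetracycline in the libraries used here, so the agent and MYCN cannot be told apart. Libraries were made from total RNA after removal of ribosomal RNA and read from both ends. The study describes replicates as independent experiments, and the labels give neither batch nor date.

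Each library held between 64500589 and 102249336 counted pairs. Levels are given as CPM, the counted pairs of a gene set to a common library total after TMM scaling (trimmed mean of M values). Where genes are compared with each other they are given as TPM, which also divides by exon length. MYCN, the check of the labels, stood at 30.3, 35.5 and 32.4 CPM in control replicates 1, 2 and 3 and at 211, 221 and 199 CPM in MYCN-induced replicates 1, 2 and 3, with a log2 fold change of 2.68 (SE 0.085, adjusted p = 4.15e-05, edgeR). MYCN-induced replicate 3 was unlike the rest. A principal component analysis gave it a score of 58.2 on its first axis (50.9% of the variance), while replicates 1 and 2 of its condition scored 14.1 and 11.5 and no control scored above -24.1. The results are therefore given library by library, and the main counts also with this library left out. Of 9 adrenergic neuroblastoma markers, 8 exceeded 1 TPM in every library, with TH as the exception. Of 9 mesenchymal markers 7 did so, while CD44 had 0 counts throughout. The summed adrenergic level was 526 to 669 TPM in the controls and 497 to 651 TPM in the induced libraries, and the mesenchymal sum was 192 to 206 and 207 to 252 TPM. Of 5 immune markers only CD68 exceeded 1 TPM in every library, CD3E was at 0, and the endothelial, epithelial and erythroid lists each summed to under 1 TPM in every library.

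Entry into mitosis is driven by CDK1 bound to cyclin B, which is switched on by CDC25 phosphatases and reinforced by Polo and Aurora kinases. The spindle assembly checkpoint then holds the anaphase-promoting complex (APC/C) inactive until every kinetochore is attached, after which securin and cyclin B are destroyed. Transcripts of these genes are low in G1 and high in G2 and mitosis, under the DREAM and MuvB complexes, B-Myb and FOXM1, so that their level in bulk RNA depends on the share of cells in those phases as well as on transcription in each cell. Fewer cycling cells and less of each RNA per cell cannot be told apart in bulk samples.

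The promoters are shown first because this programme is known for shared promoter elements. RefSeq windows of 300 bases (GRCh38.p14, 250 bases before to 50 after a gene's start) existed for 34 of the 40 genes, 41 windows in all. AURKA, BIRC5, FOXM1, TPX2, TTK and UBE2C had none. The CHR element (cell cycle genes homology region, searched as TTTGAA or TTCGAA on both strands) was present in 29 of 41 windows (70.7%), against 16.4% of all 35116 windows of this length. The CCAAT box (CCAAT, both strands), the letters bound by NF-Y, was in 31 of 41 windows (75.6%), against 34.6% of all. Both occurred in 24 of 41 windows (58.5%), from 22 genes, against 6.38% of all. The canonical E-box CACGTG, the letters preferred by MYC family proteins, was in 6 of 41 windows (14.6%, in ANLN, CCNB1, CENPE, CENPF, MYBL2 and PLK1), against 7.26% of all. E2F letters (TTTCCCGC, TTTGGCGC or TTTCGCGC, both strands) were in 4 windows (9.76%), against 2.74% of all. Among the 40 windows found for 31 of 36 S phase and replication genes, 5% held a CHR and 47.5% E2F letters. These are matches of letters, which may overlap each other (TTTGAATTGG holds both a CHR and a CCAAT box read on the other strand).

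The stretches below lie upstream of a RefSeq start, in the direction of the gene, and capitals mark CHR and CCAAT letters on either strand. CCNB1, CCNA2, PTTG1, CDK1 and MKI67 are some of the genes whose values are singled out later. Others, such as PLK1, INCENP and KIF2C, are not printed. The B-type cyclin CCNB2, the APC/C activator CDC20 and the spindle motor KIF11 are added as examples with both elements close together.
CCNB1 (chr5:69167000-69167119, plus strand): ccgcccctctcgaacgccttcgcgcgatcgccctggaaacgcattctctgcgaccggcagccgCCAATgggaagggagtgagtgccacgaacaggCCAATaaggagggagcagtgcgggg
CCNA2 (chr4:121823915-121824034, minus strand): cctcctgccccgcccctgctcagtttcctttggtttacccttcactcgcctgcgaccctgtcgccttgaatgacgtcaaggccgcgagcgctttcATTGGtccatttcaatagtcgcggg
PTTG1 (chr5:160421712-160421831, plus strand): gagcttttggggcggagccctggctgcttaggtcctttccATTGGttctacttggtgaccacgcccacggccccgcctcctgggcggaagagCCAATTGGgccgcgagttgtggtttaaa
CCNB2 (chr15:59105023-59105142, plus strand): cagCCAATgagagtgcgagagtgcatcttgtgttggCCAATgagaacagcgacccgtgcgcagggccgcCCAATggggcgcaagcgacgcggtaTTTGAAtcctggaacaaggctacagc
CDC20 (chr1:43358831-43358950, plus strand): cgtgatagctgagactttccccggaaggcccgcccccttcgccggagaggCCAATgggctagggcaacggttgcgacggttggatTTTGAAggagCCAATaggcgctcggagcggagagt
KIF11 (chr10:92593008-92593127, plus strand): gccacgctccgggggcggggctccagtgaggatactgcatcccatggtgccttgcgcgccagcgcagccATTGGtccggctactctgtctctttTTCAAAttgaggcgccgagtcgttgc
CDK1 (chr10:60778086-60778205, plus strand): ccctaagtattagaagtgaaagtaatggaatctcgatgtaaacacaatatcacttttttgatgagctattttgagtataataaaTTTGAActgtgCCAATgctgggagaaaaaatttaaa
MKI67 (chr10:128126424-128126543, minus strand): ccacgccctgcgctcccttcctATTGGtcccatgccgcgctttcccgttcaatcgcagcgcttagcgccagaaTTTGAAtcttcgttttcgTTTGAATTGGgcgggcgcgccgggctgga

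The CDK1 stretch lies upstream of one of its alternative starts, and its other window also holds both elements. CCNB1, CCNA2 and PTTG1 show CCAAT letters and no CHR of the searched spelling in their windows, which says only that those letters were not found there.

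In control cells the genes spanned a wide range of levels per length. Mean TPM over the 3 controls ran from 6.36 for CDC25C, the phosphatase that activates CDK1, to 115 for CENPF, a large kinetochore protein, with a median of 29.5 TPM. The next highest were the decatenating enzyme TOP2A at 90.7 ± 7.73 TPM (SD, n = 3), MYBL2 at 86.2 ± 5.24, the proliferation marker MKI67 at 79.2 ± 7.34, the microtubule nucleation factor TPX2 at 78.5 ± 8.42 and cyclin A2 (CCNA2) at 74.7 ± 5.14. Neighbours in this order overlapped in their control values, from TOP2A down to CCNA2. CENPF stood above them with no overlap, and CCNB1, at 58.97 ± 2.94 TPM, stood below CCNA2 with no overlap. PLK1 (15.7 ± 0.882 TPM), AURKB (9.31 ± 0.611 TPM) and CENPA (12.3 ± 0.557 TPM) were among the low ones.

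**Figure D1:**
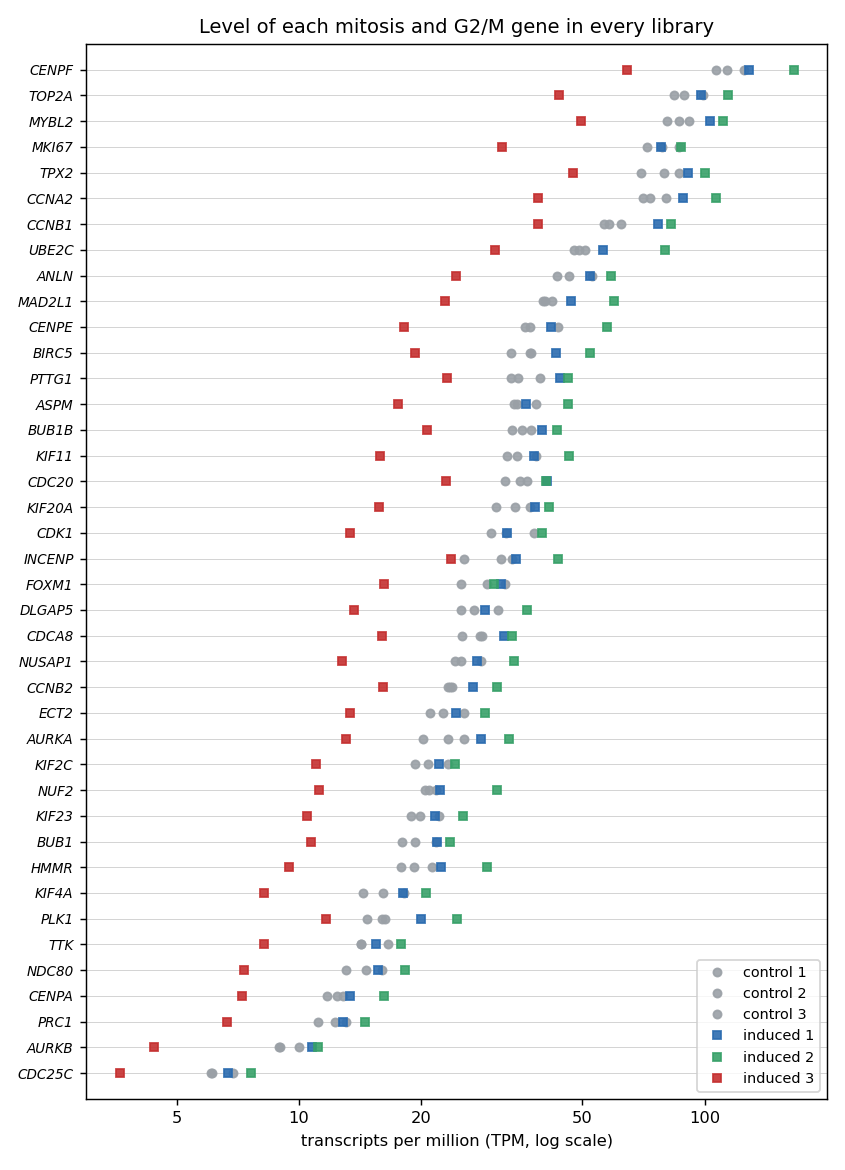
Level of each of the 40 genes in TPM (log axis) in every library, ordered by the control mean; circles are the 3 control libraries and squares the 3 MYCN-induced libraries. From CDC25C at 6.36 to CENPF at 115 TPM in the controls, the square of induced replicate 3 is the lowest point of all 40 genes on this scale. The share over all genes was not counted in TPM.

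The comparison of MYCN-induced with control cells asked whether mitotic transcripts change once MYCN is on. None of the 40 genes passed the threshold in either direction (edgeR quasi-likelihood test, Benjamini-Hochberg adjusted p under 0.05 over all genes tested), while 3.40% of all genes tested were called, 1.02% higher and 2.38% lower. At an unadjusted p under 0.05 the edgeR count was also 0 of 40, against 18.7% of all genes. DESeq2 likewise called 0 of 40, against 7.23% of all genes, and had 0 of 40 at an unadjusted p under 0.05, against 17.4% of all genes. Log2 fold changes (MYCN-induced minus control) ran from -0.31 for MKI67 to 0.22 for PLK1 with a median of -0.077, against -0.00038 over all genes. They were above 0 for 12 genes and below 0 for 28. Standard errors were 0.14 to 0.27, unadjusted p values 0.240 to 0.957 and adjusted p values 0.558 to 0.985. A p that misses the threshold does not show that the levels were equal, and the induced libraries of this group did not behave as one set.

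In induced replicates 1 and 2 most of the genes were above the controls, and in induced replicate 3 nearly all were below them. Relative to the mean of the controls, the median over the 40 genes was 108.7% (range 95.7 to 127) in induced replicate 1, 114.9% (94.6 to 145.3) in induced replicate 2 and 63.2% (46.3 to 90.2) in induced replicate 3. The medians over all genes tested were 99.5%, 99.0% and 98.7%. Induced replicate 3 lay under all 3 controls for 39 of 40 genes, against 37.4% of all genes, and INCENP was the exception. Induced replicate 1 lay above all 3 controls for 30 of 40 (31.2% of all genes) and induced replicate 2 for 34 of 40 (32.1%). Both were above while induced replicate 3 was under the controls for 27 of 40 genes, against 4.95% of all genes. No gene of the 40 separated the conditions completely, whereas the values of 26.3% of all genes did not overlap. In TPM, whose scale moves with all other transcripts of a library, the corresponding counts were 40 under and 22 with both others above. Shares over all genes were not counted in TPM, so these counts have no background to be read against.

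The spread within conditions shows the same split. Over the controls the coefficient of variation of the 40 genes had a median of 4.73% (0.863 to 18.5), and over the induced libraries 31.6% (17.3 to 41.0), against medians of 9.15% and 14.5% over all genes. Induced replicate 3 held 54.8% (45.5 to 75.7) of the mean of induced replicates 1 and 2. The low values were there under each scaling. As a median log2 ratio to the control mean, the 40 genes were at 0.12, 0.20 and -0.66 in induced replicates 1, 2 and 3 with TMM. With library size only they were at 0.11, 0.23 and -0.78, where all genes were at -0.13 in induced replicate 3, and with upper-quartile scaling at 0.11, 0.19 and -0.73, where all genes were at -0.075.

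**Figure D2:**
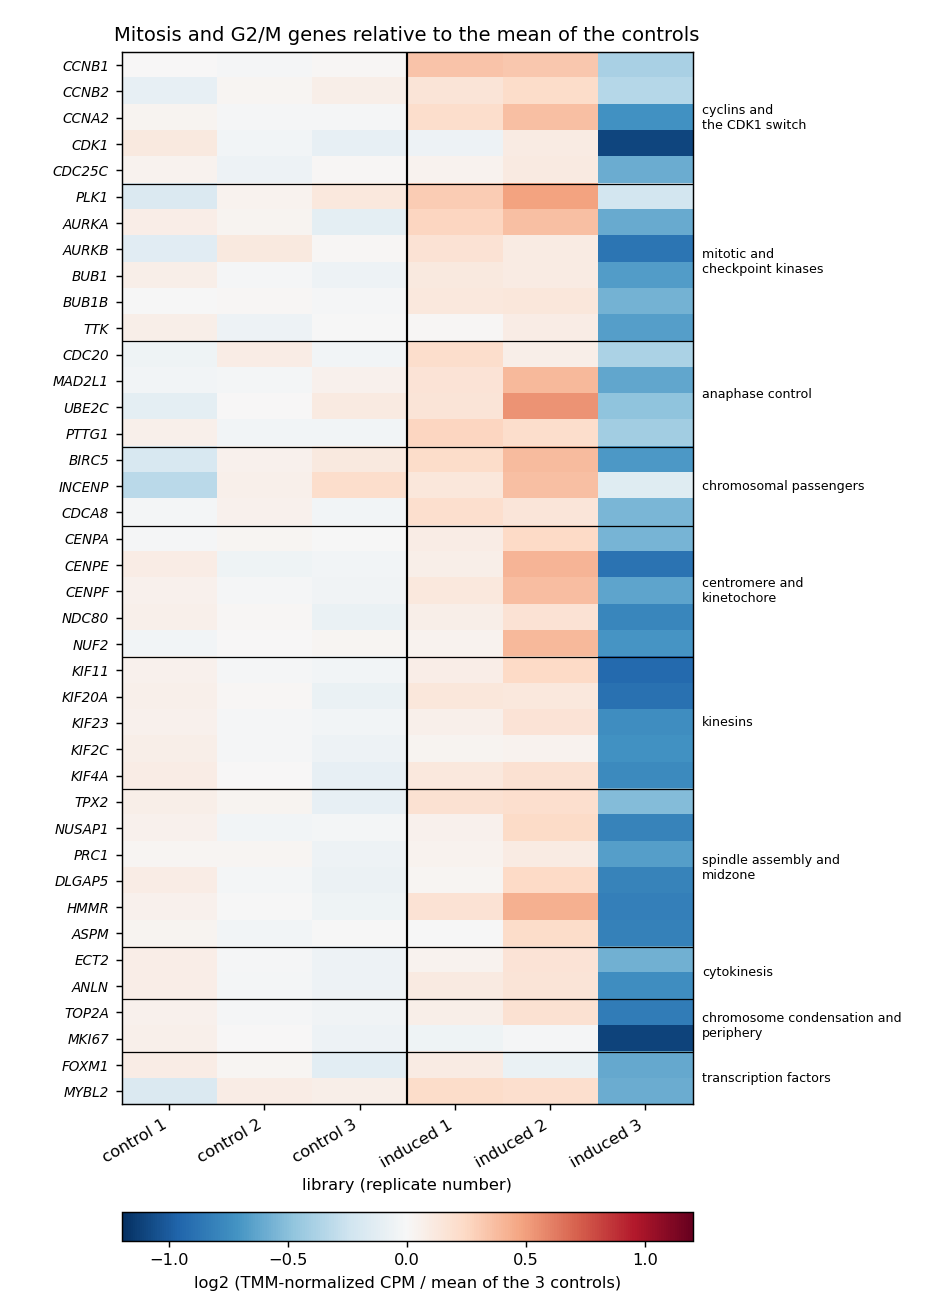
Heat map of the 40 genes (rows, grouped by role) in the 6 libraries (columns); colour is the log2 ratio of TMM-normalized CPM to the mean of the 3 controls, red above and blue below. Induced replicate 3 is blue in every group of genes, with a median of -0.66, while induced replicates 1 and 2 are mostly pale red, with medians of 0.12 and 0.20.

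By role, the median log2 ratio to the control mean in induced replicate 3 ran from -0.45 for anaphase control to -0.97 for chromosome condensation and periphery. The cyclins and the CDK1 switch had medians of 0.15, 0.23 and -0.60 in induced replicates 1, 2 and 3. CCNB1 (cyclin B1, ENSG00000134057.15, chromosome 5 from 69167135 to 69178245, plus strand), the partner of CDK1 at mitotic entry, stood at 87.6, 86.5 and 88.1 CPM in control replicates 1 to 3 and at 111, 109 and 66.8 CPM in induced replicates 1 to 3. Its controls lay close together, with both higher induced values above them and the last below. Its log2 fold change was 0.13 (SE 0.18, adjusted p = 0.749). CCNB2, a second B-type cyclin, read 37.05, 40.3 and 41.5 CPM in the controls and 43.99, 46.3 and 31.2 CPM after induction. CCNA2 (ENSG00000145386.11, chromosome 4 from 121816444 to 121823883, minus strand), which acts in S phase and G2, read 128, 123 and 124 CPM and then 144, 160.2 and 75.4 CPM. For both, the conditions overlapped only through induced replicate 3, which was lowest of the 6 libraries. EXOSC9 on the other strand overlaps 9.24% of the exon bases of CCNA2. CDK1 (ENSG00000170312.16, chromosome 10 from 60778331 to 60794852, plus strand), the mitotic kinase itself, read 86.3, 78.1 and 74.7 CPM in the controls and 76.3, 85.1 and 37.1 CPM in the induced cells. Its first 2 induced values lay among or next to the controls, and the last was 46.5% of the control mean, giving a log2 fold change of -0.27 (SE 0.26, adjusted p = 0.648). CDC25C read 13.3, 12.4 and 12.98 CPM and 13.3, 13.9 and 8.50 CPM, again lowest in induced replicate 3.

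The 6 genes grouped as mitotic and checkpoint kinases do not include CDK1, which was placed with the cyclins. All 6 were lowest in induced replicate 3, at 54.6% to 85.6% of the control mean. PLK1 (Polo-like kinase 1, ENSG00000166851.15, chromosome 16 from 23677656 to 23690367, plus strand) read 40.5, 46.9 and 49.8 CPM in the controls and 56.6, 63.8 and 39.2 CPM in induced replicates 1 to 3. It had the highest log2 fold change of the 40, 0.22 (SE 0.17, adjusted p = 0.558), and its induced replicate 3 was 85.6% of the control mean. Other genes on the opposite strand, ERN2 included, overlap 12.8% of its exon bases. AURKA, the centrosomal Aurora kinase (ENSG00000087586.18, chromosome 20 from 56369389 to 56392337, minus strand), read 43.2, 41.9 and 37.9 CPM and 48.97, 52.6 and 27.03 CPM. AURKB, the Aurora kinase of the chromosomal passenger complex, read 11.6, 13.8 and 12.8 CPM and 14.4, 13.6 and 6.95 CPM, so that its induced replicate 3 stood at 54.6% of the control mean. The low library was thus nearer to the controls in PLK1 than in the Aurora kinases. BUB1, a kinetochore kinase of the checkpoint, read 79.6, 74.6 and 72.5 CPM in the controls and 81.9, 81.1 and 47.6 CPM after induction. TTK (MPS1), the kinase at the top of the checkpoint, read 43.8, 39.9 and 41.6 CPM and 42.1, 44.5 and 26.5 CPM, with its first 2 induced values close to the controls. BUB1B, the checkpoint protein BUBR1, was at 109%, 109.8% and 67.5% of the control mean in the induced libraries. Adjusted p values of these 6 genes were 0.558 to 0.914 (edgeR).

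The 4 anaphase control genes were at 64.8% to 76.9% of the control mean in induced replicate 3. CDC20, the activator of the APC/C that the checkpoint restrains, read 40.9, 45.1 and 41.5 CPM in the controls and 49.03, 44.6 and 32.7 CPM in the induced libraries. UBE2C, the ubiquitin-conjugating enzyme of the APC/C, read 35.5, 38.7 and 41.7 CPM and 42.9, 56.1 and 27.6 CPM. Its induced replicate 2 was the highest of the 40 genes relative to the controls, at 145%. PTTG1 (securin, ENSG00000164611.13, chromosome 5 from 160421855 to 160428739, plus strand), which blocks separase, read 44.9, 41.97 and 42.1 CPM and 51.6, 49.7 and 32.3 CPM, and near-identical copies of this gene exist elsewhere in the genome. Its counts are uncertain, since the file headers name unique alignments while the methods list the counting of multi-mapping reads. MAD2L1, the checkpoint protein MAD2, was at 112%, 131% and 64.8% of the control mean. Log2 fold changes of the 4 were -0.013 to 0.13.

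The chromosomal passengers correct faulty attachments at the centromere. BIRC5 (survivin) read 73.6, 86.7 and 91.2 CPM in the controls and 97.3, 109 and 52.01 CPM after induction, with both higher induced values above every control and the last below them. INCENP (ENSG00000149503.13, chromosome 11 from 62123998 to 62153169, plus strand), the scaffold of the complex, was the only gene of the 40 without induced replicate 3 under the controls. It read 65.7, 86.2 and 95.6 CPM and 90.9, 106 and 74.4 CPM, and control replicate 1 was its lowest library. Its controls spread more than those of any other of the 40 genes, with a coefficient of variation of 18.5%, and its log2 fold change was 0.13 (SE 0.16, adjusted p = 0.731). CDCA8 (borealin) was at 115%, 111% and 68.2% of the control mean.

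At the centromere and kinetochore the gap between induced replicates 2 and 3 was wide. CENPA, the histone variant that marks centromeres, read 14.5, 14.8 and 14.6 CPM in the controls and 15.5, 17.2 and 9.93 CPM in the induced libraries. CENPE, a kinetochore motor, read 249.9, 226 and 229 CPM and 247, 312 and 127 CPM. It had the largest standard error of the 40, 0.27 beside a log2 fold change of -0.039. CENPF read 846, 813 and 796 CPM and 892, 1056 and 529 CPM. In all 3, induced replicate 2 was the highest and induced replicate 3 the lowest library. NDC80 and NUF2, which bind microtubules together in the outer kinetochore, were at 58.3% and 61.4% of the control mean in induced replicate 3.

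The kinesins, motors that build and move the spindle, were all below 0 in log2 fold change, from -0.17 to -0.093, and none passed the threshold. KIF11 (Eg5), which pushes spindle poles apart, read 118, 113 and 111 CPM in the controls and 121, 134 and 59.5 CPM after induction. KIF20A, a motor of the central spindle, read 82.9, 80.6 and 75.4 CPM and 87.3, 86.8 and 42.9 CPM. Both were near the bottom of the 40 genes in induced replicate 3, at 52.3% and 53.8% of the control mean. KIF2C (MCAK, ENSG00000142945.13, chromosome 1 from 44739818 to 44767767, plus strand), which takes microtubules apart at centromeres, read 49.2, 46.5 and 45.2 CPM and 48.1, 48.4 and 28.3 CPM, and its log2 fold change of -0.17 (SE 0.19, adjusted p = 0.681) was the third lowest. KIF23 and KIF4A, of the spindle midzone, were at 59.8% and 58.7% of the control mean in induced replicate 3.

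Among spindle assembly and midzone genes TPX2, which activates AURKA, read 180.0, 175 and 160.4 CPM in the controls and 195, 198 and 120.1 CPM in the induced libraries. Its log2 fold change, -0.0098 (SE 0.18), was the smallest in size of the 40, with induced values on both sides of the controls. The other 5, NUSAP1, PRC1, DLGAP5, HMMR and ASPM, were between 99.6% and 134.5% of the control mean in induced replicates 1 and 2, and between 56.5% and 63.4% in induced replicate 3. Counts of NUSAP1 and PRC1 are uncertain, since 81.4% and 61.9% of their exon bases are shared with other annotated genes, a readthrough gene on the same strand included, and shared pairs were split. The cytokinesis genes ECT2, which activates RhoA, and ANLN (anillin) were at 67.1% and 59.5% in induced replicate 3.

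TOP2A and MKI67 act on condensed chromosomes, the first in untangling them and the last as a coat of their surface. TOP2A read 365, 347 and 343 CPM in the controls and 370.4, 398 and 197 CPM after induction. MKI67 (ENSG00000148773.14, chromosome 10 from 128096659 to 128126423, minus strand), the source of the Ki-67 antigen, read 644, 620.3 and 591 CPM and 598, 614 and 287 CPM. Its first 2 induced values were just under the control mean, at 96.6% and 99.3%, and the last was 46.3% of it. That gave the lowest log2 fold change of the 40, -0.31 (SE 0.25, adjusted p = 0.576). MKI67 and CDK1 were the only genes of the 40 at or under 50% of the control mean in induced replicate 3. That share was not above the 6.64% of all genes. At 75% or more there were 6 genes in that library (CCNB1, CCNB2, PLK1, CDC20, PTTG1 and INCENP).

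Of the transcription factors, FOXM1, an activator of G2/M genes, read 91.6, 87.6 and 78.8 CPM in the controls and 92.3, 81.3 and 56.3 CPM in the induced libraries, and 15.9% of its exon bases overlap ITFG2 on the other strand. FOXM1, at 94.6%, and MKI67 were the only genes of the 40 with induced replicate 2 under the control mean. MYBL2 (B-Myb), which acts with MuvB, read 129.8, 156 and 153 CPM and 169.9, 168 and 96.8 CPM, and both higher induced values lay above every control. The 26 genes with a CHR in a window had a median of 62.2% of the control mean there, and the 8 genes with windows but no CHR had 60.3%.

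Because induced replicate 3 stood apart, the fit was also made without it, with 3 control and 2 induced libraries. Then 39 of the 40 log2 fold changes were above 0, against 50.3% of all genes, with a median of 0.159 against 0.0022 over all genes. The range was -0.021 for MKI67 to 0.40 for PLK1, and 27 genes turned from below to above 0. The edgeR test called 4 of 40 genes higher and 0 lower, where 3.68% of all genes were called higher and 4.44% lower. At an unadjusted p under 0.05, 21 of 40 were higher and 0 lower, against 12.3% of all genes higher. The 4 called genes were CCNB1, with a log2 fold change of 0.34 (SE 0.045, adjusted p = 0.00903), CCNA2 at 0.29 (SE 0.057, adjusted p = 0.0291), AURKA at 0.32 (SE 0.069, adjusted p = 0.0389) and PTTG1 at 0.24 (SE 0.052, adjusted p = 0.0382). PLK1 missed the threshold at 0.40 (SE 0.10, adjusted p = 0.0636). The standard error became smaller for all 40 genes, from a median of 0.214 to 0.067. Leaving out control replicate 1, 2 or 3, or induced replicate 1 or 2, gave 0 called genes among the 40 with edgeR, where 0.798%, 0.315%, 0.580%, 0.999% and 1.62% of all genes were called.

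The calls of this smaller fit moved with the method, in alternatives chosen after the data were seen. Without induced replicate 3, library size only called 3 of 40 higher (CCNA2, CCNB1 and PLK1, with 3.17% of all genes) and upper-quartile scaling 2 (CCNB1 and PLK1, with 2.46%). DESeq2 called 7 (AURKA, CCNA2, CCNB1, HMMR, MAD2L1, PLK1 and PTTG1, with 5.79%). CCNB1 was called in each of these 4 fits, but all of them leave out the same library, chosen because its values stood apart. They rest on 2 induced libraries, and with all libraries the adjusted p of CCNB1 was 0.749 (edgeR). Between 38 and 39 genes were above 0 in each of the 4 fits.

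**Figure D3:**
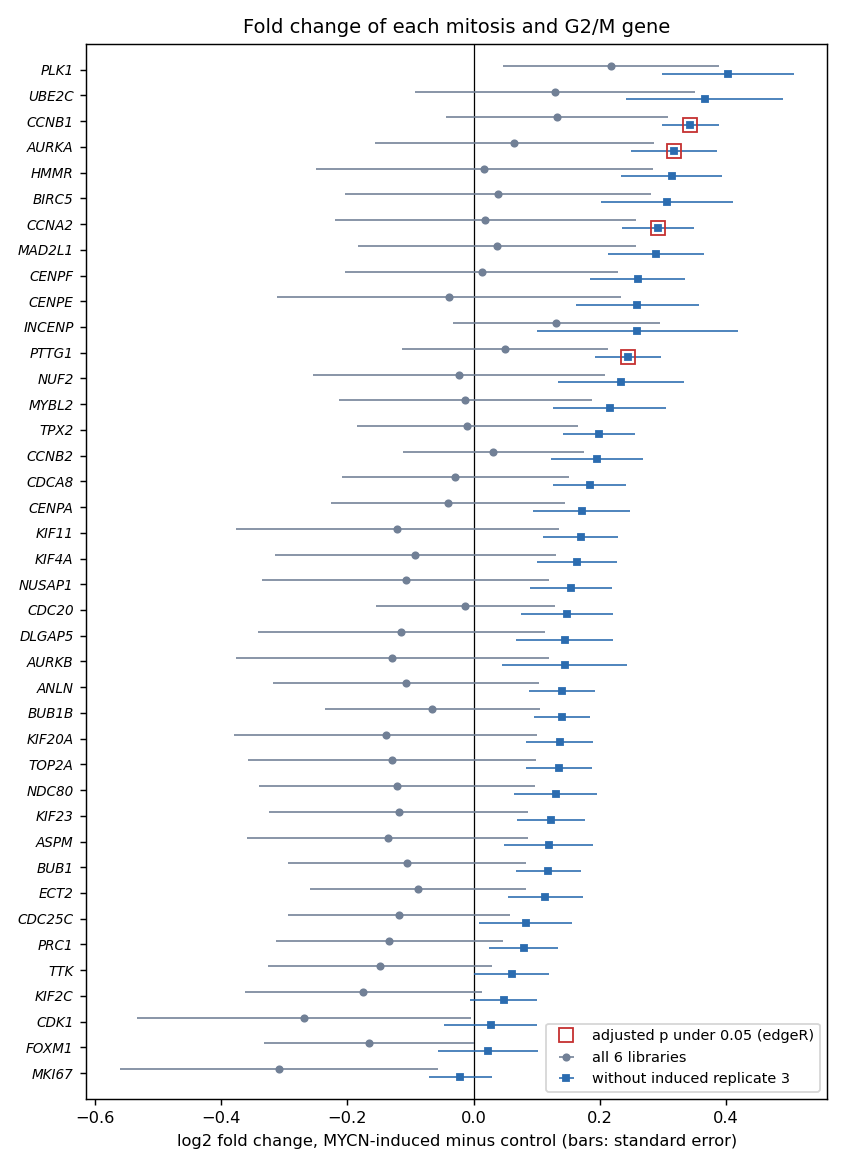
Log2 fold change (MYCN-induced minus control, bars show the standard error) of each of the 40 genes from edgeR, with all 6 libraries (circles) and without induced replicate 3 (squares); red outlines mark adjusted p under 0.05. With all libraries the values centre on -0.077, and without induced replicate 3 they centre on 0.159 with shorter bars, and CCNB1, CCNA2, AURKA and PTTG1 are outlined.

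Other genes of the cycle were also low in induced replicate 3. The list of 98 further mitosis genes, all tested, was broad and held 13 genes of MuvB, pocket proteins and E2F factors. Of the 98, 0 passed the threshold with edgeR and 0 with DESeq2, against 3.40% and 7.23% of all genes. At an unadjusted p under 0.05 edgeR gave 2 higher and 1 lower, where 8.13% of all genes were higher and 10.6% lower, and DESeq2 gave 3 higher and 1 lower, where 8.60% and 8.81% were. The median log2 ratio to the control mean was 0.086, 0.14 and -0.34 in induced replicates 1, 2 and 3, and induced replicate 3 lay under all controls for 71 of 98, against 37.4% of all genes. Without induced replicate 3, 75 of 98 were above 0, against 50.3% of all genes. There edgeR called 4 higher (4.08%), close to the 3.68% of all genes called higher. These were the kinetochore gene CENPW, the kinesins KIF20B and KIF15, and the APC/C inhibitor FBXO5.

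Of 36 S phase and replication genes, 0 passed the threshold with either tool (3.40% of all genes with edgeR and 7.23% with DESeq2), and 0 had an unadjusted p under 0.05 (18.7% and 17.4% of all genes). Their medians were 0.14, 0.17 and -0.36 in the induced libraries, and induced replicate 3 lay under all controls for 32 of 36, against 37.4% of all genes. The 3 with the smallest p were MCM5, a subunit of the replicative helicase, with a log2 fold change of 0.20 (SE 0.10, adjusted p = 0.343), CDT1, the licensing factor, at 0.38 (SE 0.21, adjusted p = 0.392), and the GINS subunit GINS4 at -0.12 (SE 0.086, adjusted p = 0.516). In induced replicate 3 CDT1 lay among the controls and MCM5 above them, with MCM5 at 74.3, 91.5 and 97.5 CPM in the controls and 97.1, 103 and 103 CPM after induction. Without induced replicate 3, 3 of 36 were called higher (MCM4, RFC4 and RFC5), where 3.68% of all genes were.

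Of 14 G1 cyclins and CDK inhibitors 12 were tested and 1 was called lower, against 2.38% of all genes. This was CDKN1A (p21), the inhibitor that holds cells in G1 or G2, which read 10.8, 11.7 and 11.2 CPM in the controls and 5.09, 4.94 and 7.87 CPM in the induced libraries. The conditions did not overlap, and induced replicate 3 was the nearest to the controls. Its log2 fold change was -0.91 (SE 0.18, adjusted p = 0.0411, edgeR). The call was lost when any one library other than induced replicate 3 was left out, with adjusted p values of 0.0955 to 0.188, and without induced replicate 3 it was 0.00226. CCND1 (cyclin D1), which read 315, 353 and 363 CPM and then 264, 290.1 and 215 CPM, and the inhibitor CDKN2C missed the threshold, with adjusted p values of 0.0991 and 0.241.

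The libraries also differed in genes of the integrated stress response, which ATF4 governs. Of 18 such genes 17 were tested, and their median log2 ratio to the control mean was 1.09, 0.63 and 3.05 in induced replicates 1, 2 and 3. ATF4 read 189, 189 and 204 CPM in the controls and 319, 300.3 and 547 CPM after induction, and the cystine transporter SLC7A11 read 16.8, 16.1 and 14.9 CPM and 86.9, 46.3 and 414 CPM. Both were highest in induced replicate 3, the library in which the mitosis genes were lowest. With all libraries 4 of the 17 were called higher (ATF4, PHGDH, SLC7A11 and MTHFD2), against 1.02% of all genes. The count was 0 without any one control or without induced replicate 1, where 0.0630% to 0.252% of all genes were called higher. It was 7 without induced replicate 2, where 0.589% were, and 11 without induced replicate 3, where 3.68% were. DESeq2 with all libraries called 11 of the 17 higher, against 3.11% of all genes. The part of this response in the levels of the mitosis genes was not tested.

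**Figure D4:**
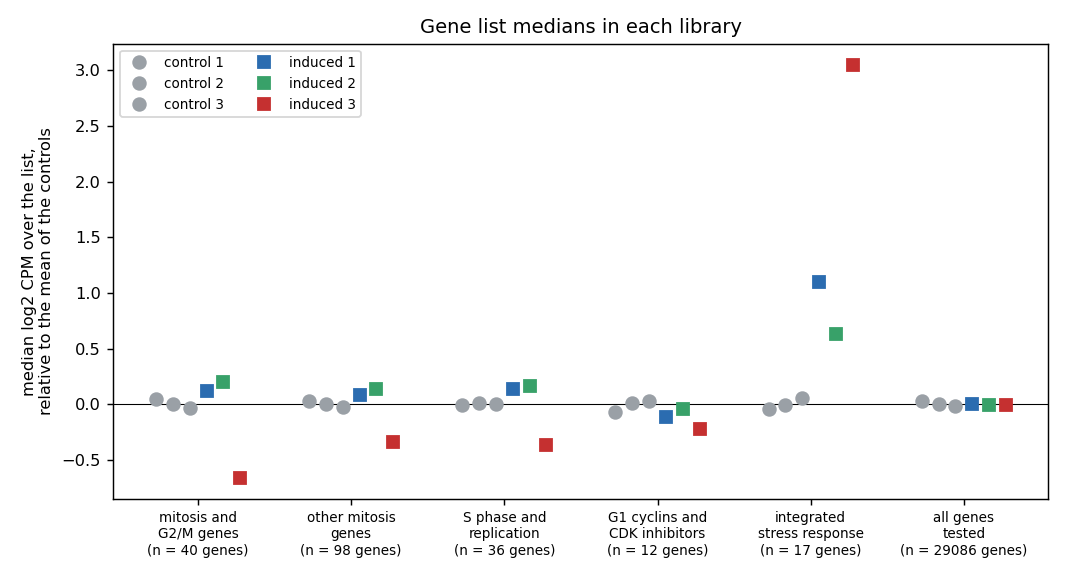
Median log2 CPM of each gene list relative to the mean of the controls, in every library (circles control, squares MYCN-induced); the number of genes is under each list. In induced replicate 3 the mitosis and G2/M genes are at -0.66, other mitosis genes at -0.34, S phase genes at -0.36 and the integrated stress response at 3.05, while all genes tested are at -0.010.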

How the data were processed

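The authors deposited estimated counts per gene for each of 6 libraries, made with STAR 2.7.1a and featureCounts over exons on GRCh38. The submitters' processing notes name featureCounts 1.5.1, while the file headers name 1.6.4, unique alignments, fractional sharing of pairs that overlap several genes, and no strand option. The methods list a strand option and the counting of multi-mapping reads. Overlapping and antisense genes, and genes with near-identical copies, are therefore uncertain. Gene symbols came from GENCODE release 44, which matched 99.65% of 60651 identifiers. The counts of 92 spike-in sequences were 0 in every library.

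Groups and replicate numbers came from the sample labels. Counts were rounded to whole numbers, and genes under 10 counts in more than 3 of the 6 libraries were dropped, leaving 29086. The test was the quasi-likelihood test of edgeR 4.0.16 (R 4.3.3) with TMM, no replicate block, Benjamini-Hochberg adjustment and a threshold of 0.05. Standard errors are the log2 fold change divided by the square root of F. TPM used the exon lengths in the deposited files. At a total of 64500589 to 102249336 pairs per library, the spread between cultures (biological coefficient of variation 0.153) limits precision more than counting error. Replicates differed by more than sampling noise (chi-square per gene 12.2 to 150.2). The test was checked on counts simulated for each gene independently, without an outlying library. That check does not show how the test behaves with a library such as induced replicate 3. Where the labels do not name separate cultures, p values measure only the spread between these libraries.

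The 40 genes and the other lists, which were written from general knowledge, were chosen with earlier results of these data known. Named genes were those of a written list of 24, the 3 smallest p and the 3 highest and lowest log2 fold changes, and in the other lists those past the threshold and the 3 smallest p. Genes called without induced replicate 3, and the stress response values shown, were named after their values were seen. Alternatives were library size only, upper-quartile scaling, a replicate block, DESeq2 1.42.0, the count filter dropped or raised to 100 counts in each of the 6 libraries, thresholds of 0.01 and 0.1, and leaving out each library. Circular RNA was not analysed here.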

Additional observations from a re-analysis of the deposited data

How the results depend on the processing

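The count of the 40 mitosis and G2/M genes called higher was 0 with all libraries, and 0 to 4 when single libraries were left out, with the 4 only without induced replicate 3. With that library left out, alternatives chosen after the data were seen gave 3 (library size only), 2 (upper quartile) and 7 (DESeq2). Those added fits are not in the next counts. Of the single-gene values under the planned settings, 476 kept their side of the threshold and 4 newly passed it, all without induced replicate 3. Other mitosis genes called higher ranged from 0 to 4 and S phase genes from 0 to 3 over the fits without one library. Over all genes, 298 were higher and 692 lower. The counts were 36 and 145 at a threshold of 0.01, 706 and 1242 at 0.1, and 904 and 1199 with DESeq2. No count filter gave 470 higher, and at least 100 counts in every library gave 404 lower. Leaving out single libraries gave 18 to 1060 higher and 72 to 1279 lower, both lowest without control replicate 2 and highest without induced replicate 3. Without induced replicate 3, library size only gave 912 and 1258, upper quartile 709 and 1321, and DESeq2 1666 and 1686. The median over the 40 genes, -0.077, was -0.238 without induced replicate 2, -0.159 without induced replicate 1 and 0.159 without induced replicate 3. Whether replicate numbers pair the libraries could not be settled from so few libraries. Deviations of same-numbered libraries correlated at 0.216, -0.019 and 0.074, against a mean of -0.047 over the 6 pairs with different numbers. Of 6 libraries, 3 correlated best with their own number. A replicate block in the model gave 265 higher and 575 lower, 0 of the 40 were called and their median was -0.126. The 40 genes had at least 589 counts in every library. An effect of depth on the calls, and the cause of the changed calls, was not tested.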

Other observations

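The 98 further mitosis genes did not share the low values of induced replicate 3 evenly. Their 14 APC/C and anaphase genes had a median log2 ratio to the control mean of 0.096, 0.087 and -0.0081 in induced replicates 1, 2 and 3. In induced replicate 3 they ran from 54.5% of the control mean for ESPL1 (separase) to 119% for ANAPC11. There 5 of the 14 lay under all controls (ANAPC4, CDC23, CDC27, FBXO5 and ESPL1), close to the share over all genes, 37.4%. The 13 genes of MuvB, pocket proteins and E2F factors were at 0.10, 0.081 and -0.15. The 27 other kinetochore genes were at 0.10, 0.12 and -0.33, the 13 condensin and cohesion genes at 0.082, 0.16 and -0.51, the 15 G2/M kinases, phosphatases and regulators at 0.056, 0.15 and -0.51, and the 16 other kinesin and spindle genes at 0.12, 0.15 and -0.58. The differences between these lists were not tested.

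The 3 of the 98 genes with the smallest p were spread over these lists. LIN54, the DNA-binding subunit of MuvB, read 38.9, 36.6 and 36.1 CPM in control replicates 1 to 3 and 42.1, 43.6 and 45.8 CPM in induced replicates 1 to 3, and the conditions did not overlap. Its log2 fold change was 0.24 (SE 0.071, adjusted p = 0.121, edgeR). CENPI, of the inner kinetochore, read 22.5, 20.2 and 19.7 CPM and 17.7, 17.5 and 10.8 CPM, and here too the conditions did not overlap (log2 fold change -0.44, SE 0.18, adjusted p = 0.2501). UBE2S, which extends ubiquitin chains for the APC/C, read 43.9, 56.4 and 56.9 CPM and 68.6, 69.1 and 55.7 CPM, with control replicate 1 the lowest and induced replicate 3 among the controls (adjusted p = 0.257). None of the 3 passed the threshold.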
